A study of Drosophila melanogaster with 4 samples.

Results

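The transcripts of 6 Drosophila melanogaster genes were examined: kmg, which encodes the zinc-finger protein Kumgang, and aly, tomb, achi, comr and mip40, which encode proteins of or bound to tMAC, the testis-specific meiotic arrest complex. A transcript model (isoform) was taken as belonging to a gene when an exon overlapped the gene's RefSeq span on the gene's strand (Release 6 of the genome). This gave 21 of the 40180 isoforms in the catalogue, at 6 of its 9100 loci, and no isoform of a second locus met the rule. Iso-Seq, in which full-length cDNAs of polyadenylated RNA are read on a PacBio instrument, was carried out on whole testes of 2 KmgKD samples (genotype bamGAL4/ KmgRNAi) and 2 Control samples (bamGAL4 without the RNAi construct). The bamGAL4 driver, active in spermatogonia, was thus present in both groups. Testes were dissected at an age of 0 to 2 days, 150 pairs for a sample, from males whose parents had been mated at 25 °C for 3 days and which were then raised at 29 °C. The deposited annotation merges the 4 libraries, and 0 of its lines name a sample or condition or carry a read number. KmgKD and Control could therefore not be compared for any of the 6 genes, nor could replicate spread or depth be measured, and each value below describes a structure in the merged catalogue. A listed isoform is a model that the authors merged and corrected from these testes, and its ends and kept introns could not be checked against reads. An isoform that is not listed may have been removed by the authors' filters.

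In the fly testis, germ cells that leave mitotic divisions become primary spermatocytes and switch on a large set of genes for meiosis and sperm formation. tMAC works at the promoters of many of these genes: Aly is related to the somatic protein Mip130, Tomb carries a DNA-binding domain related to that of Mip120, Comr is another tMAC subunit, and Mip40 is shared with the somatic complex dREAM. Achi is a homeodomain protein of the TGIF family that has been found together with Aly and Comr, and loss of any of aly, tomb, comr or the achi and vis pair stops spermatocytes before meiosis. Kmg acts in spermatocytes with the remodeller Mi-2 and is known for keeping genes of other tissues silent, where Aly would otherwise bind at cryptic promoters.

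In the 5 genes with more than 1 isoform, the isoforms varied more in their untranslated regions (UTRs) than in the protein they encode. Every one of the 21 isoforms had a predicted coding sequence (CDS) in the catalogue. The CDS start was a single position in each gene, although the 21 isoforms had 18 different 5' ends (16 with those within 10 bp joined). Among the genes with at least 2 isoforms, this held for 5 of 5, against 31.8% of the 5737 loci of the catalogue with at least 2 coding isoforms. For the 3 genes with 5 isoforms (kmg, achi and mip40) it held for 3 of 3, against 20.2% of the 524 loci with that number of coding isoforms. A single CDS stop was found in 4 of the 5 genes, against 56.7% of such loci, and in 2 of the 3 genes with 5 isoforms, against 54.2%. Of the 20 isoforms of these 5 genes, 17 carried the longest CDS of their gene. Over catalogue loci with at least 2 coding isoforms, 39.9% of 34508 isoforms did so. That share was not matched for the number of isoforms per locus. These shares are descriptions with no test, since loci and isoforms of 1 merged file are not replicates. The exceptions among the 21 isoforms were 2 of kmg and 1 of achi.

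The kmg gene (2L, 13160527 to 13163153, plus strand) had 5 isoforms and 3 different coding sequences. Its longest CDS, of 2244 bp or 748 codons, ran from 13160806 to 13163106 and was carried by 3 isoforms. Whether the last codon is the stop codon could not be read without genome sequence, so codon numbers and 3' UTR lengths here may be off by 1 codon. A CDS intron of 57 bp (13162363 to 13162419) was spliced out in 4 isoforms and kept in 1, which was unspliced throughout. The length of this intron is a multiple of 3, yet the predicted CDS of the unspliced isoform ended 21 bases into it, at 13162383. The CDS of that isoform, 1578 bp long, thus held 519 of the 748 codons of the longest CDS (69.4%), followed by 7 codons of intron, and lacked the other 229. Its 3' UTR was 770 bp long, against 38 to 83 bp in the 4 spliced isoforms.

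A further intron lay inside the first coding exon of kmg. It was 87 bp long (13160951 to 13161037), followed 145 coding bases, and was removed in 1 isoform and kept in the other 4. Its removal took 29 codons out of the CDS and left the frame intact, so that this isoform had a CDS of 2157 bp with the same start and stop as the longest.

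The 5' ends of kmg differed in their relation to a 5' UTR intron of 206 bp (13160587 to 13160792). The isoform with the outermost start, 51 bp upstream of the RefSeq end, spliced this intron out and had a 5' UTR of 124 bp. The isoform that started 18 bp upstream of that end kept it, with a 5' UTR of 297 bp. The remaining 3 isoforms began together inside the intron, 77 bp before its acceptor, and had 91 bp of 5' UTR each. These 3 were the unspliced isoform, the isoform that lost the 87 bp and 1 with the longest CDS. Among these listed isoforms, the outer starts occurred with the longest CDS alone, and the inner start with all 3 coding sequences. An isoform removed by the filters could change this pattern.

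**Figure D1:**
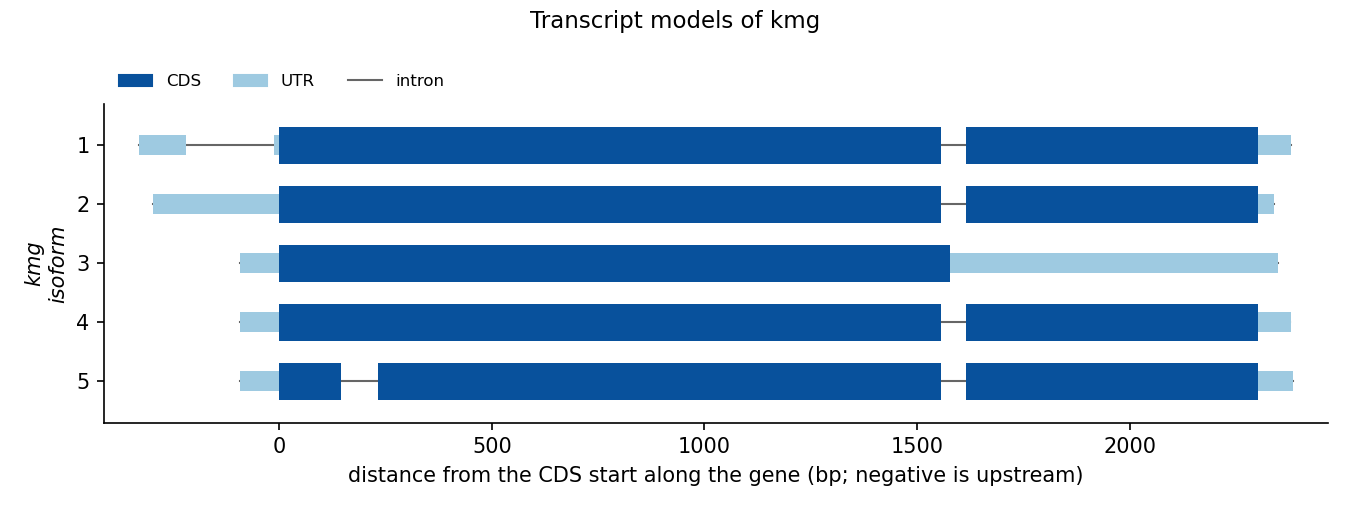
Transcript models of kmg, 1 row per isoform in the order of their starts, against the distance from the CDS start along the gene in bp. Dark boxes are CDS, light boxes UTR and lines introns. Isoform 3 keeps the intron of 57 bp and has 770 bp of 3' UTR, and isoform 5 lacks 87 bp of the first coding exon.

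The gene aly (3L, 3024129 to 3026521, minus strand), whose product is the subunit that gave the always early class of meiotic arrest mutants its name, had 3 isoforms with the same CDS of 1605 bp (535 codons, 3026259 to 3024592). Its CDS intron of 63 bp (3025922 to 3025984) was spliced out in all 3. A second intron, also of 63 bp (3026261 to 3026323), lay in the 5' UTR and ended 1 base before the CDS start. It was spliced out in the 2 isoforms that started at 3026514 and 3026507, which had 5' UTRs of 192 and 185 bp. The third isoform started at 3026370, kept this intron and had a 5' UTR of 111 bp.

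The 3' ends of aly lay at 2 positions 403 bp apart. The isoform with the outermost start ended at 3024129, the RefSeq end, with a 3' UTR of 463 bp. The other 2 isoforms ended at 3024532 with 60 bp, so that the long 3' UTR was 7.72 times as long as the short one. Both 3' UTR lengths occurred with the spliced 5' UTR, while the isoform that kept the 5' UTR intron had the short one.

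The gene tomb (2L, 5535861 to 5536758, minus strand) had 2 isoforms with 1 splicing pattern and 1 CDS of 732 bp (244 codons, 5536726 to 5535933), interrupted by an intron of 62 bp (5536496 to 5536557). Here the 2 isoforms differed at both ends. The longer one began 58 bp upstream of the RefSeq end and had a 5' UTR of 90 bp and a 3' UTR of 126 bp. The shorter one began 5 bp inside that end and had 27 and 39 bp, the shortest 5' UTR among the 21 isoforms.

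The gene comr (2R, 21864870 to 21866859, minus strand) had 1 isoform, without introns. Its CDS of 1803 bp (601 codons, 21866793 to 21864991) was flanked by 88 bp of 5' UTR and 120 bp of 3' UTR. Both ends lay close to RefSeq, with the start 22 bp upstream and the 3' end 1 bp short of it. It was the simplest of the 6 genes, and 1 was also the highest isoform number that the authors' numbering gave its locus.

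**Figure D2:**
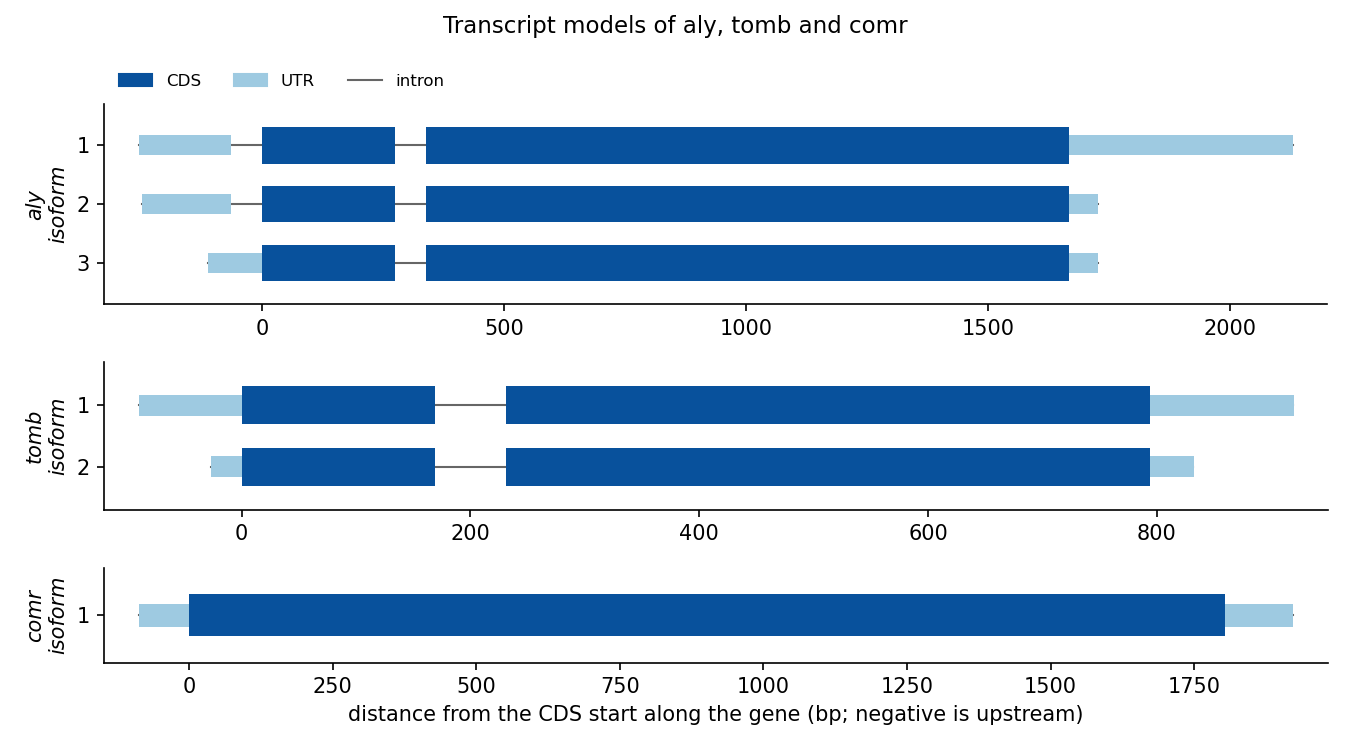
Transcript models of aly, tomb and comr, 1 row per isoform, against the distance from the CDS start along each gene in bp, with a scale of its own for each gene. Dark boxes are CDS, light boxes UTR and lines introns. The coding parts are the same in all isoforms of a gene, and the 3' UTR of aly is 463 bp in isoform 1 and 60 bp in isoforms 2 and 3.

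The gene achi (2R, 12511534 to 12515062, minus strand) had the most introns of the 6 genes, with 7 or 8 in each of its 5 isoforms, and these differed mainly at the 5' end. The CDS started at 12514244 and stopped at 12512071 in all 5. In 4 isoforms it was 1668 bp long (556 codons). The fifth isoform, which started at 12514453, skipped a coding exon of 387 bp (12512873 to 12513259) by joining the exons on either side across an intron of 576 bp. The skipped exon is 129 codons long, so that the frame was kept and the CDS was 1281 bp (427 codons), 76.8% of the longest.

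Only 1 achi isoform started at the outer end, 9 bp inside the RefSeq end. The nearest inner start lay 600 bp farther in, and the 4 inner starts (12514453, 12514430, 12514426 and 12514334) spread over 119 bp. In 3 isoforms a first exon of 278, 24 or 83 bp was joined to the same acceptor, 17 bases before the CDS start, across 5' UTR introns of 514, 168 and 82 bp. The 2 other isoforms, from 12514430 and 12514334, had a first exon that ran on through this acceptor into the coding part. The 5' UTRs of the 5 isoforms ranged from 41 to 295 bp.

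The 3' ends of achi lay within 16 bp of each other, at 186 to 202 bp short of the RefSeq end, and the 3' UTRs measured 335 to 351 bp. No isoform reached that RefSeq end. The neighbouring gene vis is a near-identical copy of achi, and it had 0 isoforms in the catalogue. How reads were shared between the 2 copies is not given in the sources used here, so the isoforms at achi may hold RNA of both.

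The gene mip40 (2R, 19291105 to 19292196, minus strand) had 5 isoforms with 1 CDS of 804 bp (268 codons, 19292097 to 19291294), which no intron interrupted. In 4 isoforms there was no intron at all. The fifth, from 19292760, had 2 introns in its 5' UTR, of 217 bp (19292320 to 19292536) and of 68 bp (19292108 to 19292175), and the second ended 10 bases before the CDS start. The widest spread of 5' UTRs among the 6 genes was found here. Starts near the RefSeq end gave 94, 94 and 129 bp, while starts 564 and 606 bp upstream of that end gave 378 bp after splicing and 705 bp without it.

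The 3' ends of mip40 lay at 4 positions and gave 3' UTRs of 64, 64, 165, 184 and 359 bp. The 2 isoforms with 64 bp had starts 611 bp apart, so that the same short 3' UTR stood beside the longest and the shortest 5' UTR of the gene. The authors' isoform numbers for this locus ran to 15, of which 5 were listed. Over the 6 genes 21 of 41 numbers were listed. Over the 9100 loci of the catalogue, the median was 3 listed isoforms per locus and the median highest number was 6.

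**Figure D3:**
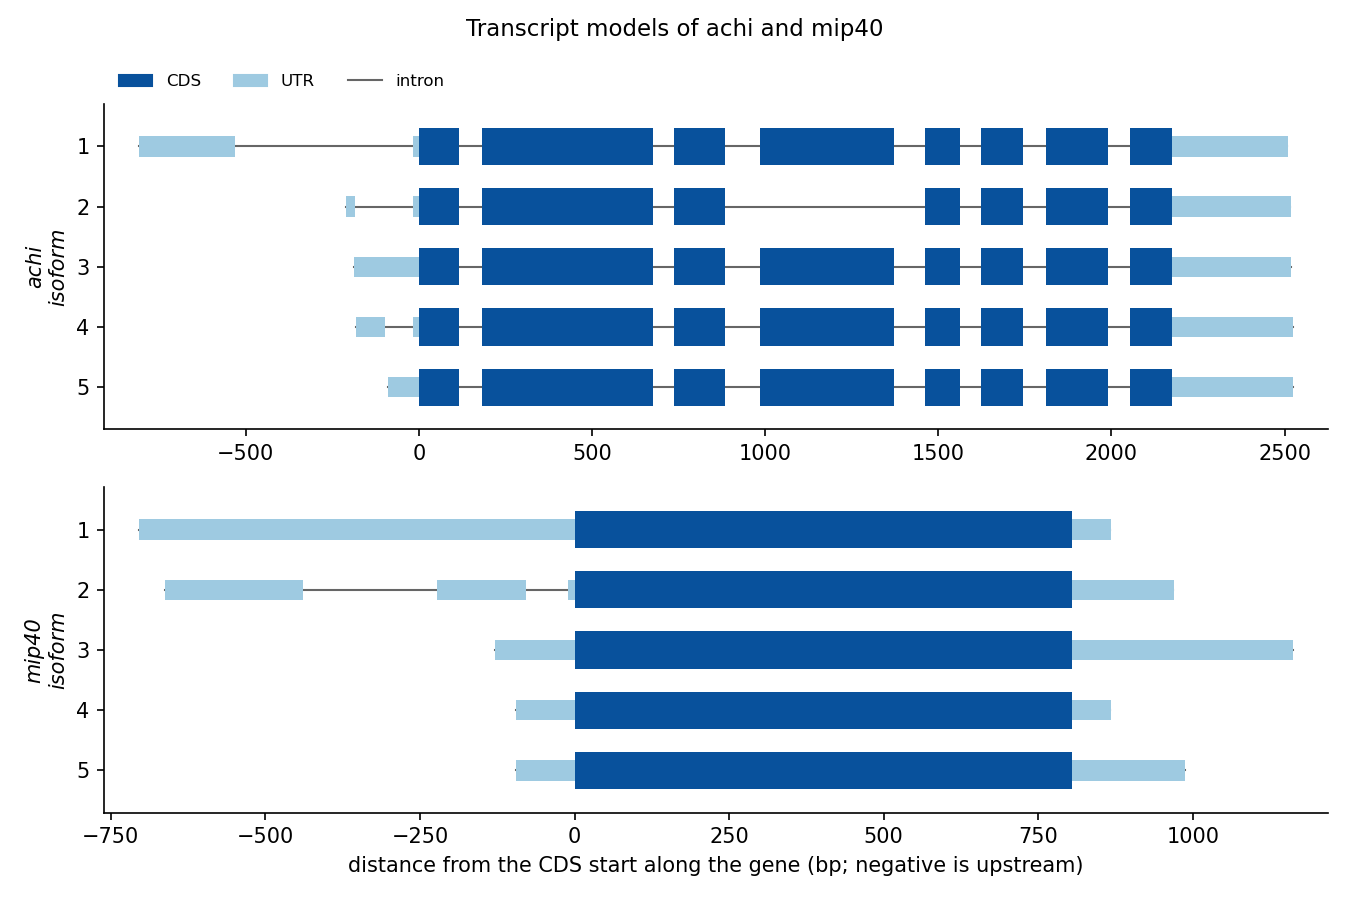
Transcript models of achi and mip40, 1 row per isoform in the order of their starts, against the distance from the CDS start along each gene in bp, with a scale of its own for each gene. Dark boxes are CDS, light boxes UTR and lines introns. Isoform 2 of achi lacks the coding exon of 387 bp, and isoform 1 of mip40 has an unspliced 5' UTR of 705 bp.

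A 5' UTR intron was present in 4 of the 6 genes (kmg, aly, achi and mip40), in 7 of the 21 isoforms (33.3%, against 40.1% of coding isoforms in the catalogue). In all 4 genes the last such intron ended just before the CDS start, at a distance of 13 bases in kmg, 1 in aly, 17 in achi and 10 in mip40. An acceptor up to 20 bases from the CDS start was present in 26.3% of the 4126 loci with a 5' UTR intron and in 19.7% of the 14634 isoforms with one. The limit of 20 bases was chosen after these values were seen, and the 7 isoforms share 4 acceptors. In each of the 4 genes at least 1 other isoform kept this intron or started inside it, and the CDS began at the same base either way. Tomb and comr, by contrast, had a first exon that ran unbroken from the start into the CDS.

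The 6 genes together had 19 different introns, 12 of them in the CDS, 7 in 5' UTRs and 0 in 3' UTRs. Their lengths ran from 57 to 576 bp with a median of 68 bp, against a median of 83 bp over the 44300 introns of the catalogue. Introns of up to 100 bp made up 14 of the 19 (73.7%), against 53.8%. Most of the 19 introns, and most of these short ones, belonged to achi alone, where 3 introns of the 5' UTR ended at the same acceptor. Of the 12 CDS introns, 5 had a length that is a multiple of 3, including both of kmg. The share over all CDS introns of the catalogue was not computed, so this count shows no trait particular to these genes. Unspliced isoforms made up 6 of 21 (28.6%), against 13.8%; 4 belonged to mip40 and 1 each to comr and kmg. In all 15 spliced isoforms the CDS stop lay in the last exon, and how common this is over the catalogue was not computed.

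Short UTRs were frequent. The median 3' UTR of the 21 isoforms was 126 bp, against 222 bp over the 36534 coding isoforms of the catalogue, and 9 of 21 (42.9%, against 21.5%) were under 100 bp. These 9 came from kmg, aly, tomb and mip40. The median 5' UTR was 100 bp, against 223 bp. The range between the shortest and longest 3' UTR of a gene was 732 bp in kmg, 403 bp in aly, 295 bp in mip40, 87 bp in tomb and 16 bp in achi, against a median of 247 bp over loci with at least 2 coding isoforms. In kmg the wide range came from the unspliced isoform with its early stop, and it was 45 bp among the 4 spliced isoforms.

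**Figure D4:**
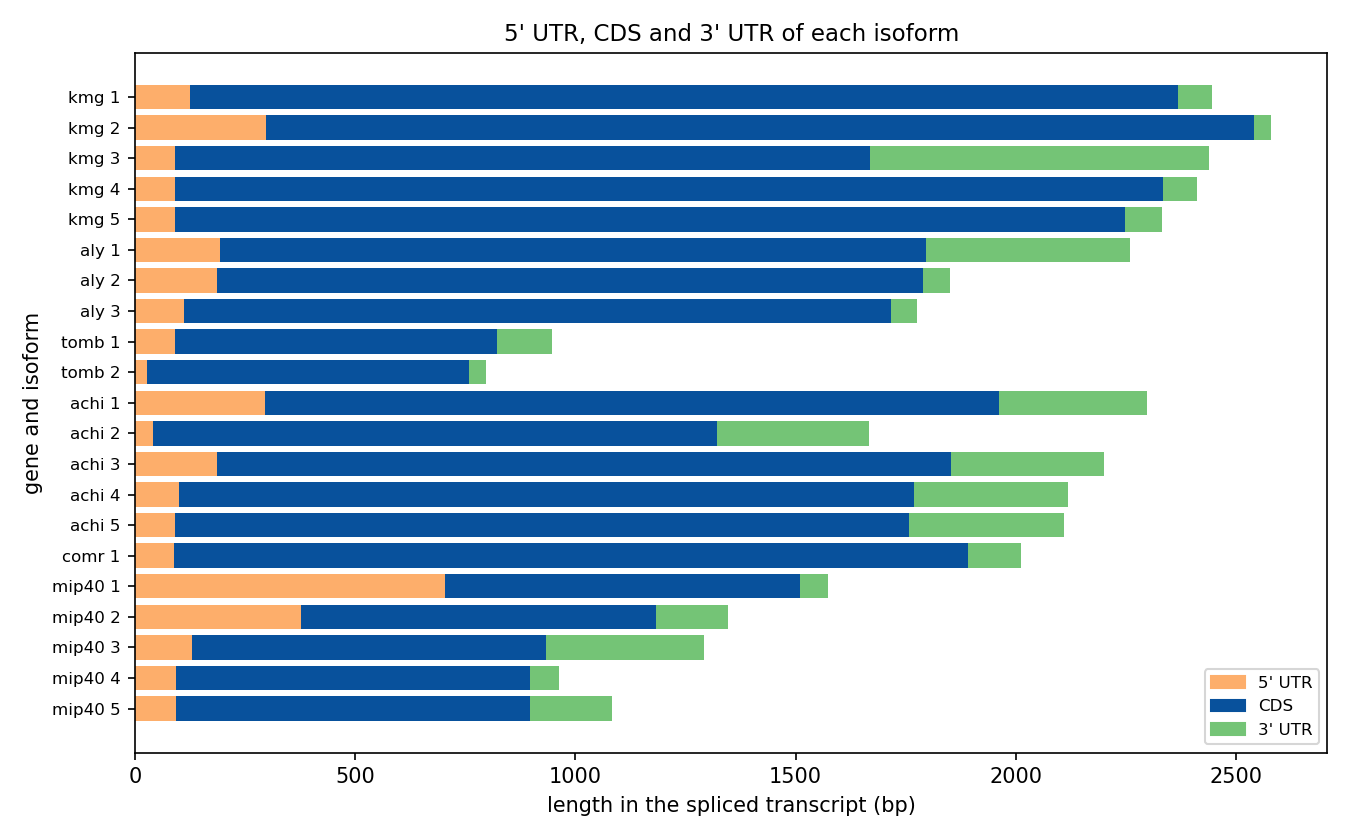
Length of the 5' UTR, CDS and 3' UTR of each of the 21 isoforms in the spliced transcript, in bp. The 3' UTR is longest in kmg isoform 3 (770 bp) and the 5' UTR in mip40 isoform 1 (705 bp), while the CDS changes within kmg and achi alone.

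Exons of 3 of the 6 genes shared bases with exons of a neighbour on the other strand, near the share of all loci for which this held (41.3%). At the 3' end of kmg, 3 of the 5 isoforms overlapped 2 of the 12 listed isoforms of DnaJ-H, a gene for a DnaJ-type co-chaperone, by at most 18 bp. Both tomb isoforms overlapped the 3' ends of 3 of 7 isoforms at the locus of Cap-D3, a condensin subunit gene, by up to 98 bp. For mip40, the isoform with the longest 3' UTR overlapped the 3' end of Fkbp12, the gene of an FK506-binding protein, by 28 bp. The 2 mip40 isoforms with upstream starts also overlapped 3 of the 5 isoforms of Tab2, by up to 268 bp. Tab2 is a signalling adaptor gene that runs in the opposite direction. Both mip40 starts lay inside the first exon of the Tab2 isoform that began at 19292535. Another listed Tab2 isoform began at 19292803, so that both mip40 starts lay outside it. The nearest listed isoform upstream of kmg, at Pk34A, ended 139 bp before the first kmg start.

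**Figure D5:**
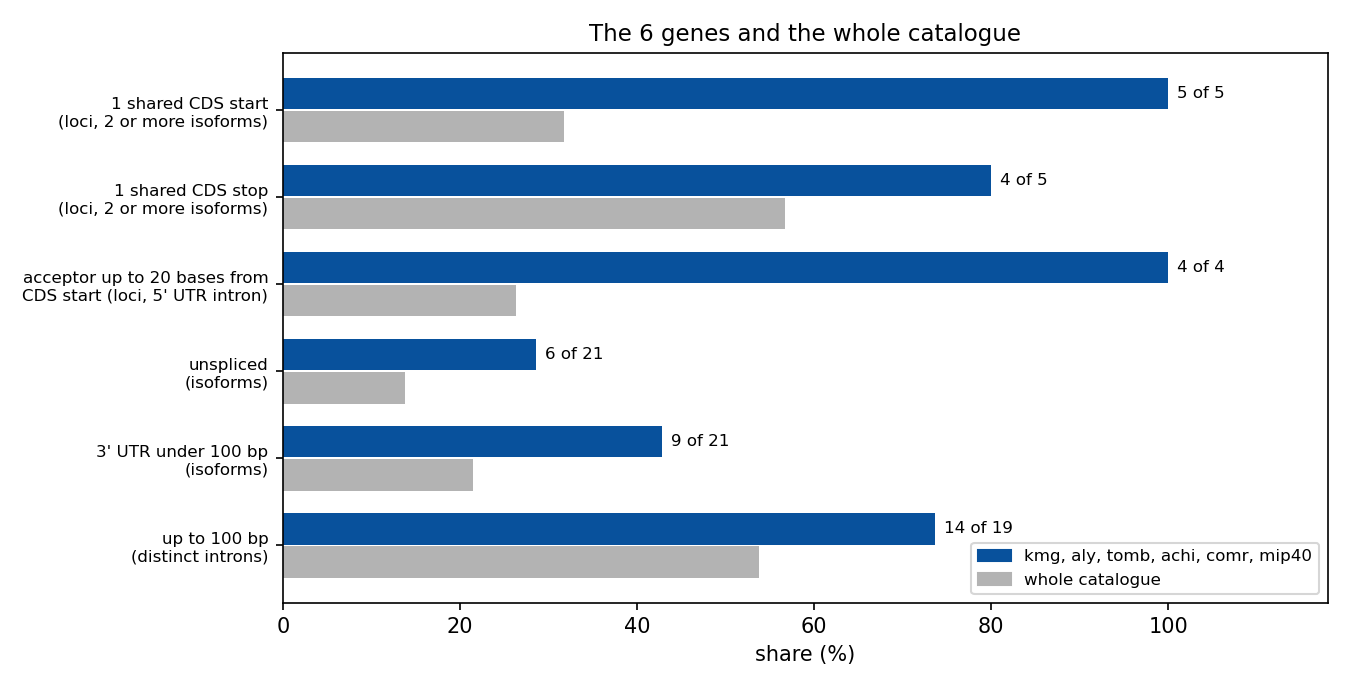
Share in % of loci, isoforms or introns with each feature, for kmg, aly, tomb, achi, comr and mip40 (dark bars, with counts) and for the whole catalogue (grey bars). A single CDS start was found in 5 of 5 genes and in 31.8% of loci, and an acceptor up to 20 bases from the CDS start in 4 of 4 genes and in 26.3% of loci. The limit of 20 bases was chosen after the distances in these 4 genes were seen, so their share was fixed by that choice.

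Further genes of the same machinery were examined by count, in 3 lists: the rest of tMAC with the achi copy (topi, vis, Caf1-55), the testis TAF genes, whose products form a testis version of part of TFIID (can, sa, mia, nht, and rye, listed as Taf12L), and somatic dREAM genes (mip130, mip120, E2f2, Dp, Rbf, lin-52). Of these 14 genes 12 had isoforms, 57 in all, and vis and lin-52 had 0. Among the 11 with at least 2 coding isoforms, a single CDS start was found in 1, nht (2 isoforms, CDS of 738 bp), and a single CDS stop in 4. Over all catalogue loci with at least 2 coding isoforms, the shares were 31.8% and 56.7%. The tMAC subunit gene topi, which encodes a zinc-finger protein, had 7 isoforms with 3 CDS starts and 1 CDS stop, and CDS lengths of 1824 to 2445 bp. The histone-binding subunit gene Caf1-55 had 4 isoforms with 3 CDS starts and CDS lengths of 525 to 1293 bp.

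The somatic relatives of aly and tomb had several CDS starts each, as did topi and Caf1-55. The 4 isoforms of mip130 had 4 CDS starts and coding sequences of 1032 to 4578 bp, against 1 start and 1605 bp for the 3 of aly. The 6 isoforms of mip120 had 3 CDS starts and 987 to 1824 bp, against 1 start and 732 bp for the 2 of tomb. Genes with more isoforms have more occasions to differ, and a span was used to assign these isoforms, without annotated exons. Few of these isoforms began within 100 bp of the outer 5' end: 1 of 4 for mip130, 1 of 6 for mip120, 1 of 7 for topi and 1 of 4 for Caf1-55. For aly it was 2 of 3 and for tomb 2 of 2, while achi, with 1 of 5, also had a single CDS start. Whether models that start inside a gene account for the several CDS starts was not tested. Of the 12 genes, 8 had a 5' UTR intron, and its acceptor lay within 20 bases of the CDS start in 1 of them, can, at 10 bases. In the catalogue, 4126 of the 9100 loci had a 5' UTR intron, and the share of these with such an acceptor was 26.3%. The limit of 20 bases was chosen after the distances in the 6 genes were seen, so these shares allow no contrast with those genes.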

How the data were processed

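The deposited file is 1 transcript annotation of the merged KmgKD and Control libraries. The name of the deposited file records TAMA merging, correction and filtering, a tappAS filter and CDS prediction by the authors. The aligner was not given in the sources used here. Builds BDGP6 and dm6 come from the submitters' processing notes. The deposited values are positions and reading frames, with no level and no sample, so no test was run and depth is unknown.

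Gene spans came from RefSeq (Release 6 plus ISO1 MT), and strands of the 6 genes from the rule. With Python 3.11.15 the exons, introns, UTRs and CDS of each isoform were measured. The reading frames of the CDS parts fitted each other in all 21. Starts at the outer end lay within 100 bp of the span, and ends within 10 bp counted as 1. The further 14 genes took isoforms with at least 50% of their exon length in the span, on the strand whose isoforms matched a gene end to 200 bp. Functions were tested on a made annotation, with 21 of 21 known answers recovered. The genes and lists were chosen with earlier results of these data known. The named genes are the 6, those 14 and neighbours that a transcript reaches. No genome sequence was used, so no sequence is shown.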

Additional observations from a re-analysis of the deposited data

How the results depend on the processing

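No paired analysis was possible because the merged annotation has no column for a sample, and leaving out a replicate was not possible for the same reason. Over the 6 genes, the number of isoforms (21) did not change when at least 50% of the exon length had to lie in the span, and it was 15 with spliced isoforms alone. Isoforms at the outer 5' end numbered 11 within 100 bp, 9 within 50 bp and 15 within 200 bp; kmg had 2, 1 and 5. Starts numbered 16 when those within 10 bp were joined, 18 without joining and 12 within 50 bp, and 3' ends numbered 12, 18 and 10. Splicing patterns stayed at 14 with 5 bp of tolerance. Different coding sequences numbered 9, and 7 by start and stop alone or with spliced isoforms alone. The longest 3' UTR of kmg was 83 bp, in place of 770 bp, with spliced isoforms alone or with the most frequent CDS stop alone. With spliced isoforms alone, mip40 kept 1 isoform, with 378 bp of 5' UTR and 165 bp of 3' UTR, and comr had 0. In alternatives added after the data were seen, isoforms with a 5' UTR acceptor near the CDS start numbered 7 at up to 20 and at up to 50 bases, and 3 at up to 10 bases, where those of kmg and achi fell out by their distances of 13 and 17 bases. The catalogue's share was 11.4% at 10 bases and 36.2% at 50 bases. The catalogue median stayed at 3 isoforms per locus for loci with a spliced isoform. Which isoforms are rare, and which belong to KmgKD, Control or both, cannot be told from this file.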
